A study of Mus musculus with 13 samples.

Results

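The Hox cluster genes of basal cell carcinoma (BCC) tumors in mice were examined. They were taken as every row of the expression table whose symbol is Hox followed by a cluster letter (a to d) and a paralog number, which gave 39 genes of 21100. Of these, 36 had a value in all 13 tumors, 2 (Hoxa11 and Hoxd1) had values in 1 tumor model alone and 1 (Hoxd12) had none. The genetically engineered model (GEM-BCC) had 9 tumors from 7 female Ptch1+/- K14-CreERT2 p53fl/fl mice. These animals received 3 intraperitoneal injections of 300 µg tamoxifen and 4 Gy of X-ray to the back, and tumors arose in the dermis. In the transplanted model (Tp-BCC, 4 tumors from 4 female mice), 2000000 cells of a line passaged in mice were placed under the skin of the right flank of Ptch1+/- p53fl/fl animals, which carry no Cre. K14 drives Cre, so that p53 is deleted in basal cells that express K14, and the Ptch1+/- and p53fl/fl alleles are shared by both models. The age of the mice is not given in the sources used here. All Tp-BCC tumors descend from 1 GEM-BCC tumor, so they are repeated grafts of 1 line. A difference between the models cannot be told apart from a difference in where or in which cells that founding tumor arose. Nor can it be told apart from the site of the graft, the tissue of the host or the passaging. The pairs GEM2 with GEM3 and GEM7 with GEM8 each came from a single animal. Where on the back a GEM-BCC tumor lay is not given in the sources used here.

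Hox genes encode homeodomain transcription factors that lie in 4 clusters. Within a cluster the low paralog numbers (anterior genes) are active toward the head and the high numbers (posterior genes) toward the tail and the tips of the limbs, in the order in which they lie on the chromosome. Adult skin fibroblasts keep a Hox pattern that records the body site they came from, and Hoxc13 is in addition a factor of the hair follicle and the nail. Hox proteins bind DNA together with the TALE cofactors of the Pbx, Meis and Pknox families, and Polycomb and trithorax proteins keep the clusters silent or active. On the assembly GRCm38 the 11 Hoxa genes lie on chromosome 6 from 52155367 to 52260880, the 10 Hoxb genes on chromosome 11 from 96194316 to 96368254, the 9 Hoxc genes on chromosome 15 from 102921131 to 103036856 and the 9 Hoxd genes on chromosome 2 from 74668225 to 74765142.

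The results turn on the posterior end of the Hoxd cluster, where Hoxd13 lies beside neighbours with few or no counts, and on Hoxb8, the member with the highest level in any one tumor (129.8 CPM in GEM2). The 200 bases before a RefSeq start of each are printed here 5′ to 3′ on the gene's own strand (the plus strand for all 5), from GRCm38.p6, with CG dinucleotides in capitals. For Hoxd10 and Hoxb8 this start lies inside the annotated gene, which begins at chr2:74684273 and chr11:96279401. The windows lie at chr2:74668025-74668224 for Hoxd13, chr2:74674813-74675012 for Hoxd12, chr2:74679358-74679557 for Hoxd11, chr2:74691691-74691890 for Hoxd10 and chr11:96281705-96281904 for Hoxb8. RefSeq windows were at hand for 22 of the 39 genes.
Hoxd13: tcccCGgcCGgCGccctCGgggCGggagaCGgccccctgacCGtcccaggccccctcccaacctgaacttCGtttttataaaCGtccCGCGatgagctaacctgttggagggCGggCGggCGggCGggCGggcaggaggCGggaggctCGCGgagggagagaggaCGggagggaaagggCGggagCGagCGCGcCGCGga
Hoxd12: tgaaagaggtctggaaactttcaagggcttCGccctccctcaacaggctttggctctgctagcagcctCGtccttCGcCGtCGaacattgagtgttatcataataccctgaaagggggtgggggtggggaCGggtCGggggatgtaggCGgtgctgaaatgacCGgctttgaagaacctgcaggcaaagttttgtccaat
Hoxd11: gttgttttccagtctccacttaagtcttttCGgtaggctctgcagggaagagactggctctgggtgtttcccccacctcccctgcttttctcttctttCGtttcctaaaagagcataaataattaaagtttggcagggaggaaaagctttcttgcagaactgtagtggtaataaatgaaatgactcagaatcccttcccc
Hoxd10: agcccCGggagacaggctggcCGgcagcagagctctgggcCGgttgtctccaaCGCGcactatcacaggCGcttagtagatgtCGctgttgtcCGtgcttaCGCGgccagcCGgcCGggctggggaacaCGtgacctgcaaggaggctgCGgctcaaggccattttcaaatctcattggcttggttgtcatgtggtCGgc
Hoxb8: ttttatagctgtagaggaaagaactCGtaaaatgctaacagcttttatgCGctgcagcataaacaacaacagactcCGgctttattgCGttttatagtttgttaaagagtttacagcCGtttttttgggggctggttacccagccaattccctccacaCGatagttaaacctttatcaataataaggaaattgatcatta

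In the 250 bases before the start the Hoxd13 window held 31 CG dinucleotides, a number reached by 5.19% of 32851 such windows over all genes, whose median was 6. The Hoxd12 window held 10 CG (reached by 37.8% of windows), the Hoxd11 window 2 (81.2%), the Hoxd10 window 20 (17.9%) and the Hoxb8 window 12 (33.5%). The TATA motif TATAAA, searched on both strands, was found in the Hoxd13 and Hoxb8 windows and in 12.4% of all windows. These letters describe the reference and were not measured in the tumors.

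Total expected counts were 28075317 to 32629102 per GEM-BCC tumor and 15388027 to 17494912 per Tp-BCC tumor. Levels are given as CPM (counts scaled to a common library size after TMM normalization). A level under 3 counts was taken as too low to read, and where such a value is printed it is the measured value only. The limit of 3 counts came to 0.0857 to 0.109 CPM in GEM-BCC and 0.177 to 0.214 CPM in Tp-BCC tumors. The quasi-likelihood test of edgeR was run on genes with 10 or more counts in 4 or more tumors, p-values were adjusted over all 14390 genes tested, and fold changes are Tp-BCC over GEM-BCC on the log2 scale. All GEM-BCC libraries formed 1 batch and all Tp-BCC libraries another, so batch and model cannot be told apart. In whole tumors, fewer cells of a type and less RNA per cell cannot be told apart either. Basal epithelium markers were present in every tumor, summing to 11558 to 18117 CPM in GEM-BCC and 8956 to 21488 CPM in Tp-BCC. Of these markers 1 of 9 (Col17a1, higher in Tp-BCC) passed the test, beside 19.4% of all genes.

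Of the 32 Hox genes tested, 4 were higher in Tp-BCC (Hoxd13, Hoxc10, Hoxc11 and Hoxc12) and 0 were lower at an adjusted p under 0.05. Over all genes 11.1% were higher and 8.35% lower by the same rule (19.4% in either direction). Hoxd13 reached the count filter through Tp-BCC tumors alone, so that its presence among the tested genes required it to be high there, and without it 3 of 31 Hox genes were higher. All 4 were posterior genes, of 11 posterior genes tested (3 of 10 without Hoxd13), against 0 of 15 central (paralogs 4 to 8) and 0 of 6 anterior genes (1 to 3). By cluster they were 3 of 9 tested Hoxc genes and 1 of 6 Hoxd genes, with 0 of 9 Hoxa and 0 of 8 Hoxb genes. Without adjustment, 11 of the 32 had a p under 0.05 (6 higher and 5 lower), a share close to the 34.5% of all genes, and DESeq2 put 4 Hox genes higher and 4 lower (Hoxa5, Hoxa7, Hoxc13 and Hoxd8), beside 13.1% and 12.9% of all genes. The median log2 fold change was 0.14 for the Hox genes and −0.03 for all genes, with 13 of 32 Hox genes below 0 beside 51.4% of all genes. With the added threshold of an absolute log2 fold change above 2, Hoxd13, Hoxc10 and Hoxc11 were called (3 of 32, beside 2.36% of all genes called higher) and 0 Hox genes were called lower (3.21% of all genes; 5.57% were called in either direction). In the same 3 genes every Tp-BCC tumor lay above every GEM-BCC tumor, as in 5.5% of all genes. In 0 Hox genes every Tp-BCC tumor lay below, as in 4.45% of all genes. Because Hoxd13 reached the filter through Tp-BCC tumors alone, its lack of overlap was fixed in advance. Without it, Hoxc10 and Hoxc11 of 31 Hox genes remained in both counts. Among GEM-BCC tumors Hoxc11 had 10 or more counts in GEM3, GEM5 and GEM9 only, so it too needed Tp-BCC tumors to reach the filter.

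**Figure D1:**
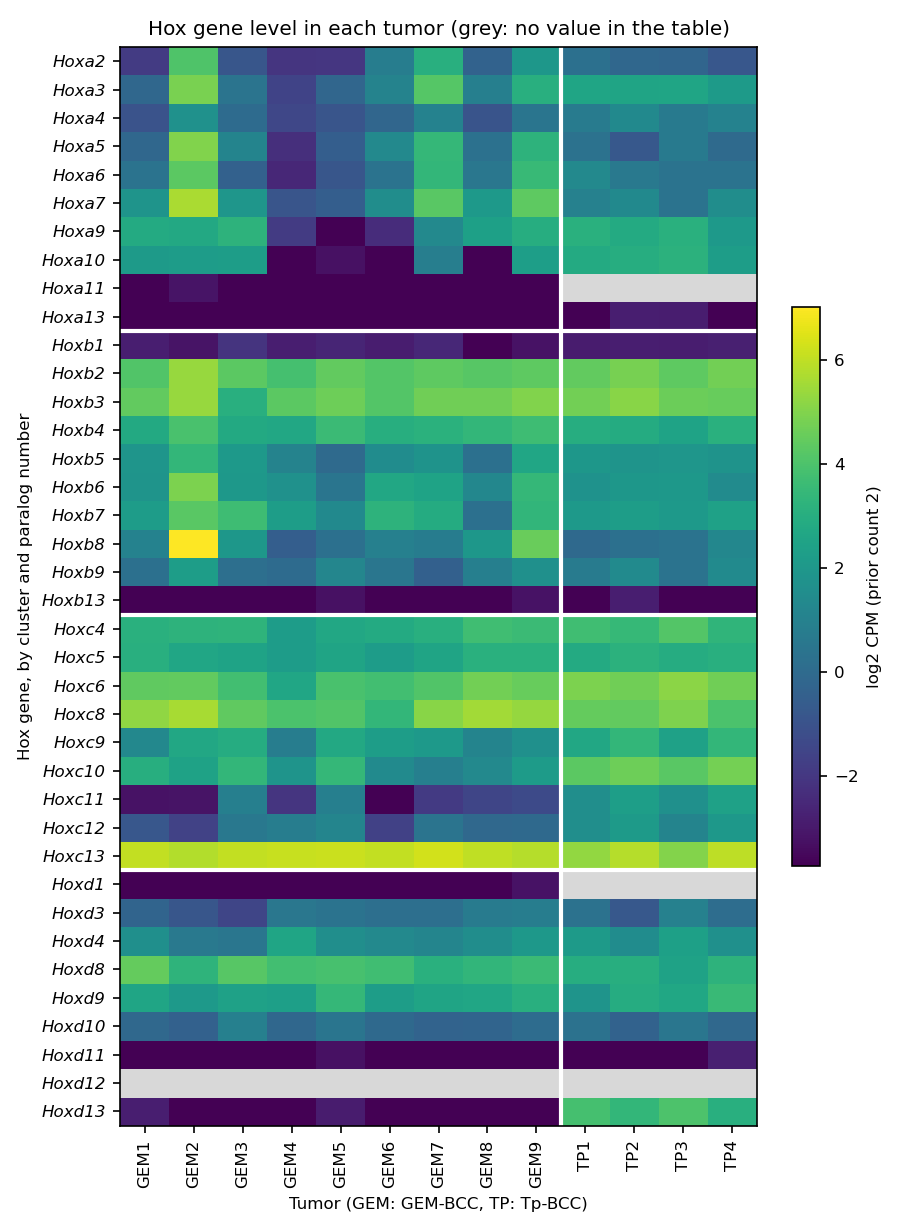
Level of 38 Hox genes (rows, by cluster and paralog number) in each tumor (columns), as log2 CPM with a prior count of 2 and grey where the table holds no value. Hoxd13 is dark in the 9 GEM-BCC tumors and bright in the 4 Tp-BCC tumors, while Hoxa2, Hoxa3, Hoxa5 to Hoxa10 and Hoxb8 differ widely among the GEM-BCC tumors.

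Hoxd13, the last gene of the Hoxd cluster and a factor of digits and the genital region in the embryo, was above 3 counts in the 4 transplanted tumors and in none of the 9 engineered ones. Its counts were 245 in TP1, 163 in TP2, 267 in TP3 and 115 in TP4 (14.4, 10.5, 16.0 and 8.21 CPM; 12.3 ± 3.56 CPM, SD, n = 4). Among the 9 GEM-BCC tumors 7 had 0 counts, and GEM1 and GEM5 had 2 each. All 4 Tp-BCC tumors were thus far above every GEM-BCC tumor, and no GEM-BCC tumor passed the 3 counts at which a level is read. With 3 counts per GEM-BCC library in place of the measured values, Hoxd13 was at least 127.7-fold higher in Tp-BCC (edgeR adjusted p = 2.06e-07). Since no GEM-BCC tumor reached 10 counts, the filter kept the gene through Tp-BCC alone, and with no filter the adjusted p was 1.32e-07. The log2 fold change passed in each of the 24 alternative fits that kept the gene, with adjusted p from 5.66e-33 to 0.00822. Of the 100-base words in the longest Hoxd13 transcript, 0.0% occur in another gene of GENCODE vM21.

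The genes next to Hoxd13 had other values. Hoxd12 had no value in any tumor and Hoxd11 had 0 or 1 counts in every tumor. Hoxd10, the next gene inward, had 0.984 ± 0.364 CPM in GEM-BCC (SD, n = 9) and 1.01 ± 0.281 CPM in Tp-BCC tumors (n = 4), with 0.05 (SE 0.38, adjusted p = 0.946) as the log2 difference. Evx2, which lies beyond Hoxd13, had at most 11 counts in any tumor and was not tested. Of the other genes numbered 13, Hoxa13 was at 0 counts in GEM-BCC and 0 or 1 in Tp-BCC tumors, and Hoxb13 was at 0 or 1 in both.

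Markers of other cell types were compared between the models as well. Their counts stand beside 11.1% of all genes higher in Tp-BCC and 8.35% lower at an edgeR adjusted p under 0.05. Adipocyte markers summed to 0.791 to 5.39 CPM in GEM-BCC and 17.5 to 253.3 CPM in Tp-BCC tumors, with 5 of 5 tested markers higher. Of these, Cidec and Cfd had 0 to 4 counts in GEM-BCC and were tested through Tp-BCC alone, and the other 3 were higher as well. Endothelium markers summed to 123.2 to 304.6 CPM and 395.5 to 503.9 CPM, with 5 of 10 higher. Skeletal muscle markers summed to 4.79 to 12.5 CPM and 7.89 to 172.4 CPM, with 1 of 6 higher, and fibroblast markers to 12655 to 49698 CPM and 15604 to 30115 CPM, with 6 of 14 higher and 2 lower. Macrophage markers were higher for 1 of 10, Schwann cell and melanocyte markers lower for 1 of 9, and T and B cell markers past the test for 0 of 2 (0 of 2 also without adjustment and by DESeq2). Hoxd13 was lowest in TP4, which had the highest muscle sum. TP2 had the highest adipocyte sum (253.3 CPM) and less Hoxd13 than TP1 and TP3, whose adipocyte sums were 17.5 and 17.9 CPM. Hoxc10, Hoxc11 and Hoxc12 went the other way. In each of them TP2 and TP4 lay above TP1 and TP3. TP2 and TP4 had the higher adipocyte and muscle sums, and also the higher basal epithelium, fibroblast and endothelium sums. Of all tested genes, 43.6% had TP2 and TP4 above TP1 and TP3, and 35.9% had them below, as Hoxd13 did. The part of any of these cell types in the Hox results was not tested.

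The posterior Hoxc genes 10 to 12 were higher in Tp-BCC. Hoxc10, a factor of the lumbar region and the hind limb, had 19.7, 24.8, 19.4 and 27.3 CPM in TP1 to TP4, and a lowest value of 1.78 (GEM7), a median of 4.46 and a highest value of 10.7 CPM (GEM5) in GEM-BCC. The Tp-BCC tumors lay above all GEM-BCC tumors and were close together, while GEM1, GEM3 and GEM5 stood above the other GEM-BCC tumors. The mean rose from 5.49 ± 3.44 (SD, n = 9) to 22.8 ± 3.92 CPM (n = 4), with 2.05 (SE 0.42, edgeR adjusted p = 0.00361) as log2 fold change. It passed in 27 of 29 alternative fits.

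Hoxc11, the next gene toward the posterior end, had 2.94, 4.82, 3.05 and 5.28 CPM in TP1 to TP4 and 0 (GEM6), a median of 0.191 and up to 1.80 CPM (GEM3 and GEM5) in GEM-BCC. There was no overlap, although GEM3 and GEM5 reached 57 and 63 counts, as many as the Tp-BCC tumors with 50 to 75 at their lower depth. Its log2 fold change was 2.94 (SE 0.89, adjusted p = 0.0299). The adjusted p was 0.0510 without GEM7, 0.0511 without GEM9, 0.0835 without TP2 and 0.0855 without TP4.

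Hoxc12, which is also expressed in hair follicles, had 2.88, 4.24, 2.09 and 3.93 CPM in TP1 to TP4 and 0.239 (GEM6), a median of 0.873 and up to 2.14 CPM (GEM5) in GEM-BCC. TP3 lay below GEM5, so the models overlapped. The log2 fold change was 1.67 (SE 0.51, adjusted p = 0.0319), under the fold threshold. The adjusted p was 0.0539 without GEM1, 0.0524 without GEM9, 0.0514 without TP1, 0.115 without TP2, 0.0998 without TP4, 0.0510 with library size alone and 0.0650 after a trend of each tumor's values on the GC content of transcripts had been removed. The same 2 GEM-BCC tumors, GEM3 and GEM5, had the highest Hoxc10 and Hoxc11 values, and GEM5 the highest Hoxc12 value.

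**Figure D2:**
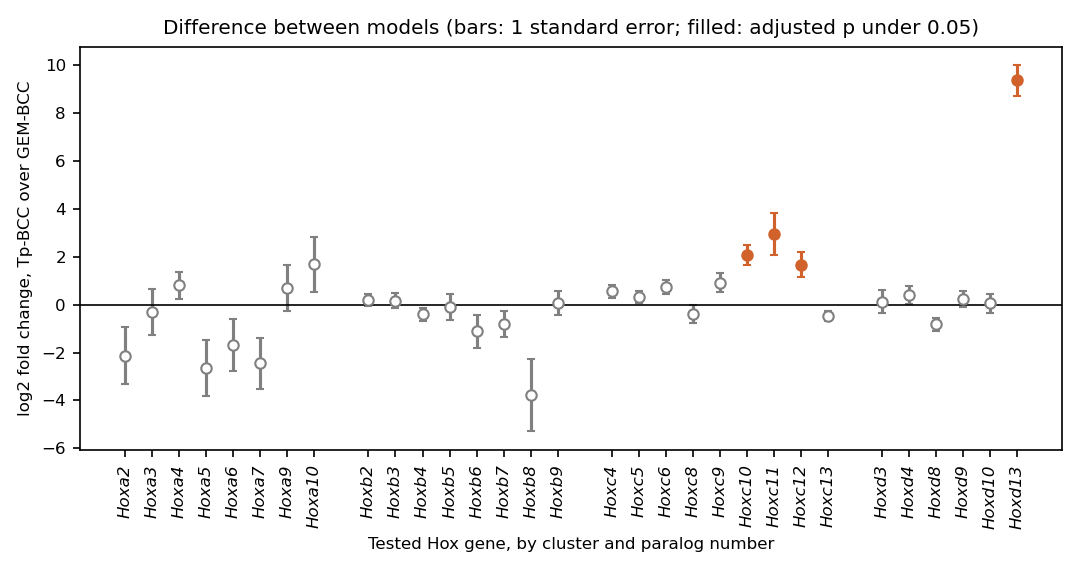
Log2 fold change (Tp-BCC over GEM-BCC, y axis) of 31 of the 32 tested Hox genes with 1 standard error, by cluster and paralog number (x axis), filled where the adjusted p was under 0.05. The filled points are Hoxc10, Hoxc11, Hoxc12 and Hoxd13, and Hoxb8 has the lowest value and the widest bar (−3.78, SE 1.51).

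The neighbours on either side of this stretch did not pass the test. Hoxc13, the hair follicle gene at the end of the cluster, was the best expressed Hox gene per length, at 26.7 CPM per kb in GEM-BCC and 19.2 in Tp-BCC. It had 39.1, 55.8, 32.6 and 61.0 CPM in TP1 to TP4 and 55.5 (GEM2), a median of 65.5 and up to 77.1 CPM (GEM7) in GEM-BCC. Among GEM-BCC tumors it varied by 1.39-fold from lowest to highest, the least of any tested Hox gene for which this ratio could be read. TP2 and TP4 lay within the GEM-BCC range and TP1 and TP3 below it, and the log2 difference was −0.48 (SE 0.19, adjusted p = 0.0935). That difference had an adjusted p of 0.0295 without TP4, 0.0388 with DESeq2 and 0.00285 after removal of the GC trend. On the inner side, Hoxc9 had 4.305 ± 2.15 CPM in GEM-BCC and 8.11 ± 2.64 CPM in Tp-BCC (log2 difference 0.91, SE 0.40, adjusted p = 0.117).

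TP2 and TP4 exceeded TP1 and TP3 in each gene from Hoxc9 to Hoxc13, whereas TP1 and TP3 exceeded them in Hoxd13. Both TP2 and TP4 were above TP1 and TP3 in 13 of 32 Hox genes and below in 11, beside 43.6% and 35.9% of all tested genes.

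Genes known to lie downstream of Hoxc13 in the hair shaft, or to share its follicle, were measured with it. Of 15 such genes 7 were tested and 2 were lower in Tp-BCC (Msx2 and Foxn1), beside 8.35% of all genes. These 2, Krt31 and Krt32 reached the count filter through GEM-BCC tumors alone, and 0 of the other 3 passed by edgeR. Msx2, a homeobox gene of the hair matrix, was at least 27.4-fold lower (adjusted p = 6.21e-05), with 0 to 2 counts in Tp-BCC tumors and 0.908 to 7.73 CPM in GEM-BCC. Foxn1, the factor lost in nude mice, had 2.21 ± 1.83 CPM in GEM-BCC and 0.199 ± 0.169 CPM in Tp-BCC (log2 fold change −3.47, SE 0.96, adjusted p = 0.0204). Its Tp-BCC counts were 0 to 5, near the limit of 3 counts, so the size of its fold change is uncertain. The best expressed member, Padi3, had 41.5 ± 16.8 and 27.6 ± 14.1 CPM (adjusted p = 0.296).

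**Figure D3:**
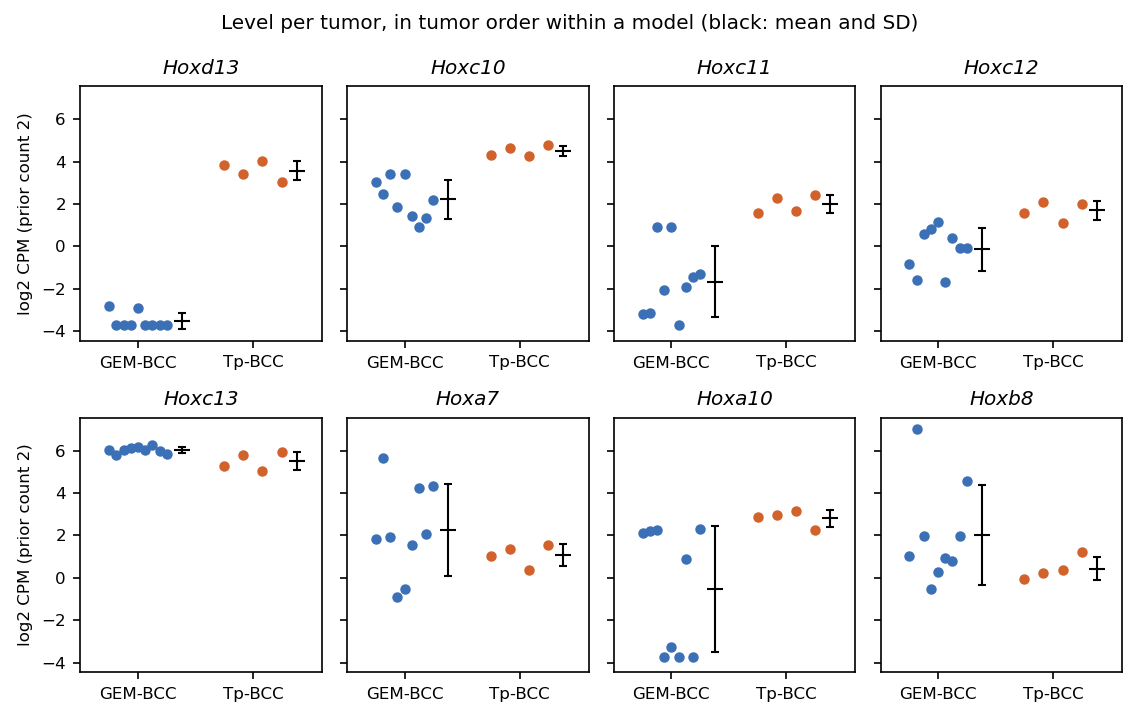
Level of 8 Hox genes in each tumor (points, in tumor order from left to right within a model) as log2 CPM with a prior count of 2, with the mean and SD of each model in black. The models do not overlap in Hoxd13, Hoxc10 and Hoxc11, in Hoxa7 and Hoxb8 the wide GEM-BCC range holds all 4 Tp-BCC tumors, and in Hoxa10 it holds TP4 while TP1, TP2 and TP3 lie above it.

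The Hoxa genes varied widely among GEM-BCC tumors, and 0 of 9 passed the test between the models. Hoxa7, a central gene of trunk skin, ran from 0.461 (GEM4) over a median of 3.70 to 49.9 CPM (GEM2), while TP1 to TP4 had 1.94, 2.51, 1.197 and 2.86 CPM. GEM2, GEM7 (19.0) and GEM9 (20.3) were high, GEM4 and GEM5 (0.628) were low, and the Tp-BCC tumors lay inside this range. The log2 difference was −2.45 (SE 1.07, adjusted p = 0.119, and 0.0491 with DESeq2).

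Hoxa3 and Hoxa5 followed the same tumors. Hoxa3, an anterior gene of the throat region, ran from 0.264 (GEM4) over a median of 1.79 to 28.6 CPM (GEM2), with 18.1 in GEM7 and 8.31 in GEM9, beside 5.89, 5.85, 5.98 and 4.35 CPM in TP1 to TP4 (log2 difference −0.32, SE 0.97, adjusted p = 0.846). Hoxa5 ran from 0.132 (GEM4) over a median of 2.12 to 31.7 CPM (GEM2), with 10.6 in GEM7 and 9.28 in GEM9, beside 1.18, 0.514, 1.56 and 0.928 CPM in TP1 to TP4. The log2 difference of Hoxa5 was −2.64 (SE 1.18, adjusted p = 0.125, and 0.0497 with DESeq2). Hoxa2 (0.165 to 16.7 CPM in GEM-BCC, adjusted p = 0.223) and Hoxa6 (0.0989 to 19.8 CPM, adjusted p = 0.286) had the same 3 tumors at the top. Hoxa4 was expressed at 0.297 to 3.16 CPM in GEM-BCC, also with GEM2 highest, and its adjusted p was 0.330.

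At the posterior end of the Hoxa cluster the order of the tumors changed. Hoxa9 had a lowest value of 0 (GEM5), a median of 5.17 and a highest value of 9.17 CPM (GEM3) in GEM-BCC, and GEM4, GEM5 and GEM6 had at most 0.198 CPM. Hoxa10 is, like Hoxa9, a gene of the lower trunk and limbs. It had 0 counts in GEM4, GEM6 and GEM8, 1 count in GEM5 and 1.75 to 4.85 CPM in the other 5 GEM-BCC tumors. GEM8 thus had 5.17 CPM of Hoxa9 and no count of Hoxa10. All 4 Tp-BCC tumors expressed both genes, at 8.36, 7.07, 8.38 and 4.14 CPM for Hoxa9 and 7.18, 7.65, 8.92 and 4.71 CPM for Hoxa10. The log2 differences of 0.70 (SE 0.95, adjusted p = 0.629) and 1.67 (SE 1.13, adjusted p = 0.309) did not pass the test, and both genes overlapped between the models. Hoxa11 had 0 or 1 counts in GEM-BCC tumors and no value in Tp-BCC.

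GEM2 was also the highest GEM-BCC tumor for every tested Hoxb gene. Hoxb8, a central gene, ran from 0.626 (GEM4) over a median of 1.97 to 129.8 CPM (GEM2), with 23.6 CPM in GEM9 and at most 3.86 CPM in the other 7 GEM-BCC tumors, beside 0.883, 1.09, 1.197 and 2.28 CPM in TP1 to TP4. GEM2 stood 207.3-fold above GEM4, and the log2 difference of −3.78 had an SE of 1.51 (adjusted p = 0.0893). Without GEM2 or another single tumor it was −4.16 to −1.82, and no alternative fit called it.

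Hoxb2, Hoxb3 and Hoxb4 varied less among GEM-BCC tumors than the other tested Hoxb genes. Hoxb3 had 8.25 (GEM3), a median of 24.8 and up to 40.9 CPM (GEM2) in GEM-BCC and 26.1, 34.5, 24.0 and 23.1 CPM in TP1 to TP4 (log2 difference 0.17, SE 0.31, adjusted p = 0.728). Hoxb2 had 14.2 (GEM4), a median of 19.6 and up to 40.7 CPM (GEM2), beside 21.9, 27.8, 20.6 and 26.8 CPM (0.20, SE 0.25, adjusted p = 0.599). Hoxb4 had 6.52 (GEM4), a median of 8.68 and up to 15.3 CPM (GEM2), beside 7.71, 7.39, 5.68 and 8.57 CPM (−0.41, SE 0.29, adjusted p = 0.324). In these 3 genes the Tp-BCC tumors lay among the GEM-BCC tumors, except TP3 for Hoxb4, which was lower than all. Hoxb5, Hoxb6, Hoxb7 and Hoxb9 had log2 differences of −1.12 to 0.07 and adjusted p of 0.263 to 0.934. Hoxb1 had 0 to 5 counts in any tumor and was not tested.

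The central Hoxc genes, which are typical of trunk skin, were expressed in every tumor. Hoxc8 had 10.3 (GEM6), a median of 34.1 and up to 49.6 CPM (GEM2) in GEM-BCC and 22.5, 21.7, 30.9 and 15.8 CPM in TP1 to TP4 (log2 difference −0.40, SE 0.38, adjusted p = 0.474). Hoxc6 had 6.13 (GEM4), a median of 16.9 and up to 26.3 CPM (GEM8), beside 30.0, 25.8, 35.4 and 25.4 CPM (0.75, SE 0.29, adjusted p = 0.0829). Hoxc4 and Hoxc5 had log2 differences of 0.55 and 0.31 (adjusted p = 0.171 and 0.418). Hoxc6 in Tp-BCC thus lay at or above the top of the GEM-BCC range without passing the test, with GEM8 above TP2 and TP4.

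In the Hoxd cluster, genes other than Hoxd13 did not pass the test. Hoxd8, its best expressed gene in GEM-BCC, had 8.46 (GEM7), a median of 12.98 and up to 21.9 CPM (GEM1) in GEM-BCC and 7.77, 7.97, 5.45 and 9.28 CPM in TP1 to TP4. Of the Tp-BCC tumors 3 were below all GEM-BCC tumors and TP4 was above GEM7 alone, and the log2 difference was −0.83 (SE 0.29, adjusted p = 0.0558). It passed without GEM7 (adjusted p = 0.0480), with DESeq2 (0.0169) and after removal of the GC trend (0.00670). Hoxd9 had 4.03 (GEM2), a median of 5.72 and up to 10.8 CPM (GEM5), beside 3.47, 7.46, 6.28 and 11.7 CPM (0.22, SE 0.33, adjusted p = 0.663). Hoxd4 had 1.33 (GEM3), a median of 2.87 and up to 5.87 CPM (GEM4), beside 4.297, 2.76, 5.09 and 3.07 CPM (0.39, SE 0.38, adjusted p = 0.490). Hoxd3 shares 84.2% and Hoxd4 39.0% of their 100-base words with overlapping transcripts, so their counts are uncertain. Hoxd3 had an adjusted p of 0.882. Hoxd1 had 0 or 1 counts in GEM-BCC and no value in Tp-BCC.

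The spread among tumors was larger in GEM-BCC for nearly all Hox genes. The SD of log2 CPM was larger in GEM-BCC than in Tp-BCC for 29 of 32 tested Hox genes, while this held for 37.2% of all genes. It was above 1 in GEM-BCC for 15 Hox genes, beside 9.98% of all genes. For Hox genes the median SD of GEM-BCC tumors was 0.89 and that of Tp-BCC tumors 0.39, and for all genes these medians were 0.44 and 0.58. GEM2 was the highest GEM-BCC tumor for 16 of the 32 genes, which were 7 of 9 Hoxa genes, 8 of 8 Hoxb genes and Hoxc8, and GEM4 was the lowest for 13. Since the Tp-BCC tumors are grafts of 1 line and the GEM-BCC tumors arose separately, the spread and the number of origins cannot be told apart.

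Tumors of the same mouse differed in their Hox levels by amounts within the range of tumors of different mice. GEM2 and GEM3, from 1 mouse, differed by more than 4-fold in 11 of 32 genes, among them Hoxa2 (4.93 on the log2 scale, GEM2 higher), Hoxb8 (5.05, GEM2 higher). In Hoxc11 the order was the opposite, with 1 count in GEM2 and 57 in GEM3. GEM7 and GEM8, from another mouse, differed by more than 4-fold in 7 of 32 genes, among them Hoxa2 (3.41, GEM7 higher) and Hoxa3 (3.29, GEM7 higher), and in Hoxa10 GEM7 had 55 counts and GEM8 had 0. The mean absolute log2 difference over the 32 genes was 1.72 and 1.204 in these 2 pairs, 0.728 to 2.68 in the 34 GEM-BCC pairs from different mice and 0.313 to 0.640 in the 6 Tp-BCC pairs. Pairs of a GEM-BCC and a Tp-BCC tumor differed by 1.02 to 2.15. Measured to the mean of the Tp-BCC tumors, GEM3 (1.04) and GEM1 (1.11) were the nearest GEM-BCC tumors and GEM2 (2.00) was the farthest. Which tumor founded the line, and whether it is among these 9, is not given in the sources used here.

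**Figure D4:**
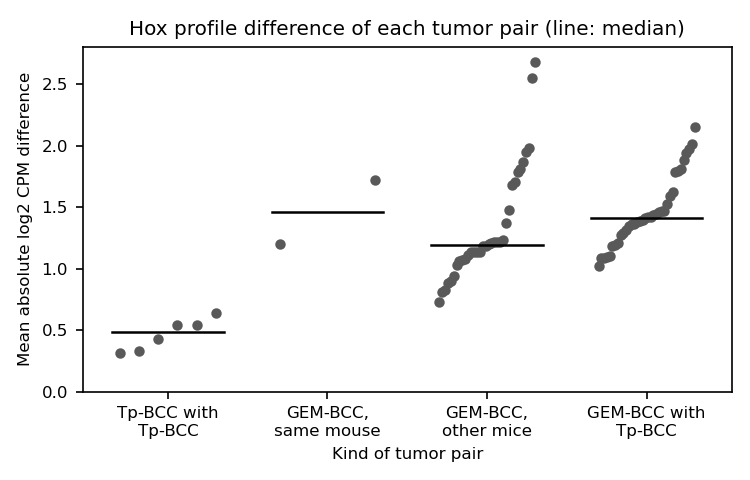
Mean absolute difference in log2 CPM over the 32 tested Hox genes (y axis) for each pair of tumors, by kind of pair (x axis), with the median as a line. The 6 pairs of Tp-BCC tumors lie between 0.313 and 0.640, below every pair that holds a GEM-BCC tumor.

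Summed over a cluster, the models had levels of the same order. The Hoxa genes summed to 42.6 ± 52.7 CPM in GEM-BCC (SD, n = 9) and 28.5 ± 4.43 CPM in Tp-BCC (n = 4), with GEM-BCC tumors from 2.21 (GEM4) to 164.6 CPM (GEM2). The Hoxb genes summed to 94.7 ± 75.9 and 73.5 ± 9.09 CPM, the Hoxc genes to 139.7 ± 19.7 and 158.1 ± 11.6 CPM and the Hoxd genes to 24.7 ± 5.56 and 33.1 ± 2.63 CPM. Hoxc genes made up 51.9 to 56.1% of the Hox sum in Tp-BCC tumors and 41.1 to 61.7% in GEM-BCC tumors other than GEM2, where Hoxb genes led with 46.4%. Posterior genes summed to 92.6 ± 10.6 CPM in GEM-BCC and 122.0 ± 18.7 CPM in Tp-BCC, and central genes to 151.2 ± 104.3 and 111.0 ± 10.8 CPM. Hoxd13 supplied 12.3 CPM of the Hoxd and posterior means in Tp-BCC and had at most 2 counts in any GEM-BCC tumor. Without it the mean Hoxd sum was lower in Tp-BCC than in GEM-BCC. All 36 Hox genes with a value in every tumor summed to 301.7 ± 132.5 and 293.2 ± 15.7 CPM.

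**Figure D5:**
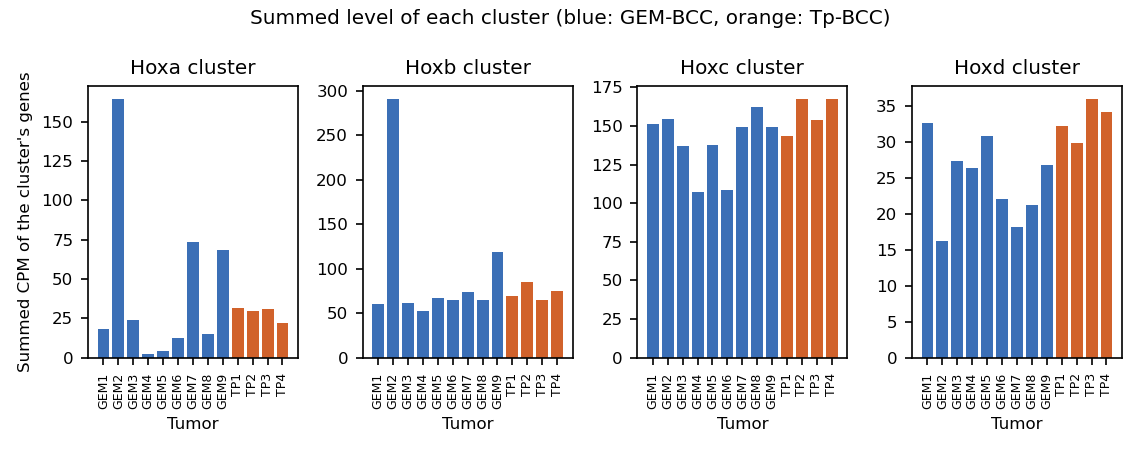
Summed CPM of the genes of each Hox cluster (bars from 0, y axes differ between panels) in each GEM-BCC (blue) and Tp-BCC (orange) tumor. GEM2 reaches 164.6 CPM for the Hoxa and 290.6 CPM for the Hoxb cluster, and the Tp-BCC tumors are close together in all 4 panels.

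Factors that act with or on Hox genes were measured too. The counts of these lists stand beside 11.1% of all genes higher and 8.35% lower at an edgeR adjusted p under 0.05. Among 9 TALE cofactors 1 was higher and 1 lower. Meis2 had 5.33 ± 1.48 CPM in GEM-BCC and 17.5 ± 6.74 CPM in Tp-BCC (log2 fold change 1.71, SE 0.29, adjusted p = 8.77e-04), and Pknox2 had 43.4 ± 22.3 and 10.2 ± 2.60 CPM (−2.09, SE 0.48, adjusted p = 0.00820). The well expressed cofactors Pbx2 and Pknox1 had log2 differences of −0.04 and −0.02 (adjusted p = 0.904 and 0.947). The median log2 difference was 0.01 for the cofactors. It was −0.09 for 31 Polycomb genes (2 higher and 1 lower) and 0.09 for 20 trithorax and H3K27 demethylase genes (3 higher and 0 lower by edgeR, with 1 lower at an unadjusted p under 0.05 and 1 lower by DESeq2), and the genes of these 2 lists that passed were under the fold threshold. Of 15 tested genes of retinoid signalling, which sets Hox borders in the embryo, 5 were higher and 1 was lower. Rxrg, a retinoid X receptor, had 34.3 ± 35.2 CPM in GEM-BCC and 6.06 ± 1.57 CPM in Tp-BCC (−2.50, SE 0.65, adjusted p = 0.0144).

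The genes that flank the clusters were tested as well. Of 8 tested genes beside the Hoxa, 4 beside the Hoxb, 6 beside the Hoxc and 6 beside the Hoxd cluster, 0 passed the test in either direction by edgeR. At an unadjusted p under 0.05 there were 2, 1, 0 and 2, beside 34.5% of all genes. By DESeq2 there were 0, 0, 0 and 1, beside 13.1% of all genes higher and 12.9% lower. The flanking genes had median log2 differences of −0.40, −0.08, −0.02 and 0.28. Of 19 names of noncoding RNAs of the clusters, 0 matched a row of the table. The 8 Evx, Cdx and ParaHox genes, relatives of the Hox genes that pattern the tail, the gut and the brain, could not be tested, with at most 11 counts wherever a value was given.

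Other transcription factors that mark body position were listed beside the Hox genes. Of 21 tested, 12 were higher in Tp-BCC (9 past the fold threshold) and 1 was lower, beside 11.1% and 8.35% of all genes. Otx2 and Barx1 reached the count filter through Tp-BCC tumors alone and Pax1 and Emx2 through GEM-BCC alone, and of the other 17 genes 10 were higher and 0 lower by edgeR. These 17 had 10 or more counts in some tumor of each model. Pax3, among the 10, still needed Tp-BCC tumors to reach the filter. Its GEM-BCC mean of 0.0920 CPM came from a single tumor with 0.828 CPM. Among the 12 higher genes, Otx2, a factor of the forebrain and the head, had 0 or 1 counts in GEM-BCC and 3.50 to 11.4 CPM in Tp-BCC tumors. Tested through Tp-BCC alone, it was at least 87.8-fold higher (edgeR adjusted p = 4.36e-08). Barx1, a factor of facial and stomach mesenchyme, had at most 4 counts in GEM-BCC and 5.93 ± 2.42 CPM in Tp-BCC (adjusted p = 4.17e-06), and Pax3, a factor of the neural crest and muscle, had at most 0.828 CPM in GEM-BCC and 11.7 ± 4.81 CPM in Tp-BCC (adjusted p = 6.99e-04). The hind limb gene Tbx4 had 2.74 ± 1.83 CPM and 23.9 ± 6.10 CPM (log2 fold change 3.12, SE 0.46, edgeR adjusted p = 3.01e-04). Pitx1, which acts before it in the hind limb, had 0 to 8 counts in GEM-BCC and no value in Tp-BCC, so it was not compared. En1, Meox2 and Otx1 were higher too, by 2.31 to 3.00. Pax1, a factor of the sclerotome, was lower (−3.32, SE 0.63, edgeR adjusted p = 0.00234). Its Tp-BCC counts were 1 to 6, near the limit of 3 counts, so the size of its fold change is uncertain. Of the 3 best expressed of the list, Alx4 rose by 1.06 (adjusted p = 0.0161), and Prrx1 and Tbx15 had log2 differences of −0.03 and 0.54 (adjusted p = 0.952 and 0.248).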

How the data were processed

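Poly(A) RNA of 13 mouse tumors was sequenced with 1 library per tumor. According to the methods, the authors cleaned the reads, aligned them to mouse transcripts (GRCm39) with Bowtie2 2.3.4.3 and quantified genes with RSEM 1.3.1 in its strand-specific mode. The deposited values are expected counts per gene, not normalized, with whole numbers for all Hox genes. How blanks arose is not stated; they affect whole models, never single tumors, and genes with 0 in every tumor of a model also occur, so a blank was not read as 0. Samples were grouped by the labels. No sample column of unknown origin was present.

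Counts were rounded, and genes with a value in each of the 13 tumors were tested, if 4 or more tumors had 10 or more counts, in R 4.3.3 with edgeR 4.0.16 (TMM, robust quasi-likelihood F test, 2-sided, no covariate, Benjamini-Hochberg over all tested genes, adjusted p under 0.05; fold threshold 2 on the log2 scale). The SE was taken as the log2 fold change over the root of the F statistic. Log2 CPM used a prior count of 2. The floor of each library was 3 counts, which covers counting error only. Positions, lengths, GC content and shared words of 100 bases came from GENCODE vM21 and promoter windows from RefSeq, both on GRCm38, not the build of the files, so coordinates are those of GRCm38 alone. CPM per kb used the longest transcript.

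The Hox genes and the other 20 gene lists were chosen with earlier results of these data known. Named are the Hox genes, with values per tumor for those past the test and the 4 best expressed of each cluster, and, of the other lists, genes past the fold threshold and the 3 best expressed; other list members named were chosen after their values were seen. Some genes of these lists are not reported here. Alternatives were other scaling, filters and dispersions, DESeq2 1.42.0, sums per mouse, single tumors left out, tumor number as a block, blanks set to 0, and removal of GC and length trends (lowess, span 0.3). The fit was tested on simulated counts. Tumors of 1 mouse and grafts of 1 line were treated as separate samples, so p-values measure the spread between these tumors only.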

Additional observations from a re-analysis of the deposited data

Results flagged for a closer look

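Of 62 groups of values checked (31 tested Hox genes in each model), 3 held a tumor whose distance to the nearest other tumor took up more of the range than Dixon's 95% limit allows, where chance gives about 1 group in 20, or 3.1. Hoxa3 was lowest in TP4 (4.35 CPM, gap 0.928 of the Tp-BCC range). Hoxb2 was highest in GEM2 (40.7 CPM, gap 0.600 of the GEM-BCC range), the tumor that led 16 of the 32 genes. Hoxc6 was lowest in GEM4 (6.13 CPM, gap 0.539 of the range), the tumor that was lowest for 13 of the 32 genes. None of these 3 genes passed the test between models.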

How the results depend on the processing

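The 4 Hox genes higher in Tp-BCC were 2 with a filter of 10 counts in 10 tumors, which leaves Hoxd13 and Hoxc11 untested, and 1 to 4 when single tumors were left out (2 without GEM9 and without TP1, 1 without TP2 and without TP4). Leaving out a Tp-BCC tumor also leaves Hoxd13 with 3 tumors at 10 counts and so untested. With the filter lowered to 3 tumors, an alternative added after the data had been seen, Hoxd13 and Hoxc10 passed in each such fit and the counts were 2 to 4. The share of all genes that were higher was 11.1% in the reported fit, 10.4% with the stricter filter and 6.10 to 11.9% with single tumors left out. The 0 genes lower in Tp-BCC were 2 with library size alone, 4 with DESeq2 (Hoxa5, Hoxa7, Hoxc13 and Hoxd8), 1 with counts summed per mouse (Hoxd8), 2 after removal of the GC trend (Hoxc13 and Hoxd8), 1 after removal of the length trend (Hoxd8) and 0 to 1 with single tumors left out (1 without GEM7 and without TP4). Of all genes, 8.35% were lower in the reported fit, 8.21% with library size alone, 12.9% with DESeq2, 8.01% per mouse, 13.3% after removal of the GC trend, 9.53% after removal of the length trend and 4.70 to 9.80% with single tumors left out. The 3 genes past the fold threshold were 1 with the stricter filter and 0 to 3 with single tumors left out (1 without GEM7, 0 without TP2 and without TP4, or 1 each with the lowered filter), and the 0 lower ones were 2 with DESeq2 (Hoxa5 and Hoxa7). Beyond the fewer genes or samples of some of these fits, the cause was not tested. No summed level of a cluster or region moved by more than the spread between tumors.

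Tumor numbers are shared between the models but belong to different mice, and same-numbered tumors did not deviate together (r of −0.38, −0.12, −0.10 and −0.18 over 14390 genes for numbers 1 to 4). With tumor number as a replicate block, which in effect rests on GEM1 to GEM4, 1 Hox gene was higher (Hoxd13), 1 was past the fold threshold and 178 of all genes passed in place of 2792. With the replicate block and the GC trend removed, 1 and 1 Hox genes passed likewise.

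Among genes that did not pass the test, the sign of the log2 difference turned as follows. With the replicate block it was 0.37 for Hoxa2, 1.99 for Hoxa3 and 0.52 for Hoxa6, and with the block and the GC trend removed 0.49, 1.96 and 0.42. After removal of the GC trend alone it was −0.033 for Hoxb2, −0.010 for Hoxd3 and −0.16 for Hoxd9. With counts summed per mouse it was 0.12 for Hoxa3 and 0.028 for Hoxb5, and with library size alone −0.035 for Hoxb9. With single tumors left out, with either filter, it ran from −0.49 to 0.40 for Hoxa3, −0.23 to 0.24 for Hoxb5, −0.13 to 0.36 for Hoxb9, −0.24 to 0.34 for Hoxd3, −0.17 to 0.46 for Hoxd9 and −0.10 to 0.17 for Hoxd10 (−0.033 without TP1 and −0.11 for Hoxb9 without TP2 with the lowered filter). At a depth of 15388027 to 17494912 counts, a Hox gene with under 3 counts in a Tp-BCC tumor could not be read.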
